A study of Mus musculus with 8 samples.

Results

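Efcab4b and the genes of store-operated calcium entry, Stim1, Stim2, Orai1, Orai2 and Orai3, were followed through 8 RNA-seq libraries of mouse jejunal crypts. They are 6 of the 23951 gene symbols in the deposited table of FPKM, which is the number of fragments scaled by transcript length and library size. The other 5 were taken for their function, whereas Efcab4b was chosen by its measured level, which was higher in SMAD4KO_BRAF than in BRAF, so that difference is described here and not tested. Every mouse carried 1 conditional copy of the activated kinase allele BRAF-V600E f/+ and the transgene Villin-CreER(T2), whose recombinase acts in the intestinal epithelium once tamoxifen is given. SMAD4KO_BRAF mice (3 libraries) also carried Smad4 f/f, CDX2KO_BRAF mice (2 libraries) carried Cdx2 f/f, and BRAF mice (3 libraries) carried neither. Tamoxifen was injected on 4 consecutive days, and the crypts were freed 1 day later with 3 mM EDTA and a 70 micron filter. The transgene spares cells outside the epithelium, which keep intact alleles, and all groups had the activated Braf allele and tamoxifen, so none of these values shows what that allele does. The ages of the mice are not given in the sources used here, nor is it said whether each library came from a separate animal, so p-values reflect how these libraries scatter, which may be technical.

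Store-operated calcium entry refills the endoplasmic reticulum. When agonists empty this store, the Stim proteins, calcium sensors in its membrane, cluster and open Orai channels in the plasma membrane. Efcab4b, now named Cracr2a, encodes an EF-hand protein that binds both Stim1 and Orai1 and was described in T cells as a stabiliser of their complex, and calcium entering this way activates calcineurin and NFAT factors.

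The targeted genes were read first. Smad4 had an FPKM of 10.7, 8.38 and 7.66 in the SMAD4KO_BRAF libraries (numbered 0 to 2 in that order), 40.1 and 35.3 in the libraries labelled CDX2KO_BRAF (0 and 1) and 42.5, 47.0 and 42.4 in the BRAF libraries (0 to 2). The difference between SMAD4KO_BRAF and BRAF on the log2(FPKM + 1) scale, given with its standard error as all differences below, was -2.19 ± 0.13 (limma, adjusted p = 0.00163). Cdx2 was higher, not lower, in the libraries labelled CDX2KO_BRAF, with 155 and 121 against 64.2, 82.6 and 80.1 in BRAF (0.86 ± 0.18, adjusted p = 0.0213 in limma, 0.0117 to 0.146 over the alternatives). The Cdx2 call ended without labelled library 0 or 1 (0.146 and 0.0616) or BRAF library 0 or 2 (0.05003 and 0.0505). FPKM of a whole gene says nothing of a deleted part of it, so the Cdx2 deletion was not checked, and every direction given for the libraries so labelled depends on that label. Epithelial markers were abundant in all libraries, all 6 of them above an FPKM of 1 throughout, and the 3 endothelial markers summed to at most 0.763. Other cells outside the epithelium were present. Sums ran from 2.16 to 70.9 for mesenchyme and smooth muscle, 2.62 to 62.5 for myeloid cells and 1.24 to 14.2 for B cells. Each of these sums was lowest in labelled library 0 and highest in BRAF library 1. Markers of T cells and intraepithelial lymphocytes differed inside the groups, with sums of 57.0 to 523 in SMAD4KO_BRAF, 17.0 to 75.9 in the labelled libraries and 38.3 to 1086 in BRAF. In tissue of mixed cells, fewer cells of a type and less RNA per cell cannot be told apart.

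Efcab4b was highest in SMAD4KO_BRAF, intermediate in BRAF and lowest in the libraries labelled CDX2KO_BRAF, where Cdx2 itself was higher. Its FPKM was 15.4, 15.1 and 14.5 in the SMAD4KO_BRAF libraries. It was 2.24 and 2.27 in the libraries labelled CDX2KO_BRAF and 6.25, 7.5 and 6.37 in the BRAF libraries. No group overlapped another, and the spread inside each group was small beside the gaps between them. Of all tested genes, 19.3% had no overlap between SMAD4KO_BRAF and BRAF. The share was 48.4% between the labelled libraries and BRAF and 47.3% between SMAD4KO_BRAF and the labelled libraries. Efcab4b was chosen for its levels in SMAD4KO_BRAF and BRAF, so this separation is a description. The mean was 15.0 ± 0.472 (SD, n = 3) in SMAD4KO_BRAF, 2.25 ± 0.0212 (SD, n = 2) in the labelled libraries and 6.71 ± 0.688 (SD, n = 3) in BRAF. The mean in SMAD4KO_BRAF was 2.23 times that in BRAF, a difference of 1.05 ± 0.10 on the log2(FPKM + 1) scale, and this value is a description because it chose the gene. The mean in SMAD4KO_BRAF was likewise 6.65 times that in the labelled libraries, a difference of 2.30 ± 0.11, given without a test because the same SMAD4KO_BRAF libraries chose the gene.

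The contrast of the labelled libraries with BRAF was not the one that chose Efcab4b, though it shares the BRAF libraries with it. The fit also took its spread from all 3 groups, and so from the libraries that chose the gene. Its p-value may therefore be too small. Efcab4b fell there by 1.24 ± 0.11 on the log2(FPKM + 1) scale (limma, adjusted p = 0.00114), with a mean in the labelled libraries 2.98-fold below that in BRAF. The call held in all 17 alternative settings, which included leaving out each library in turn, with adjusted p-values of 0.000357 to 0.0173. All of these settings reuse libraries that chose the gene. From its lowest library to its highest Efcab4b spanned 6.87-fold, while the other members spanned between 1.5-fold (Orai1) and 2.38-fold (Stim2). The highest library of Efcab4b was SMAD4KO_BRAF library 0, from the group whose level chose the gene. Its wider span is therefore a description, as the other members were not chosen by level. By mean FPKM, Efcab4b lay above 55.7% of the tested genes in SMAD4KO_BRAF, above 16.1% in the labelled libraries and above 33.3% in BRAF.

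**Figure D1:**
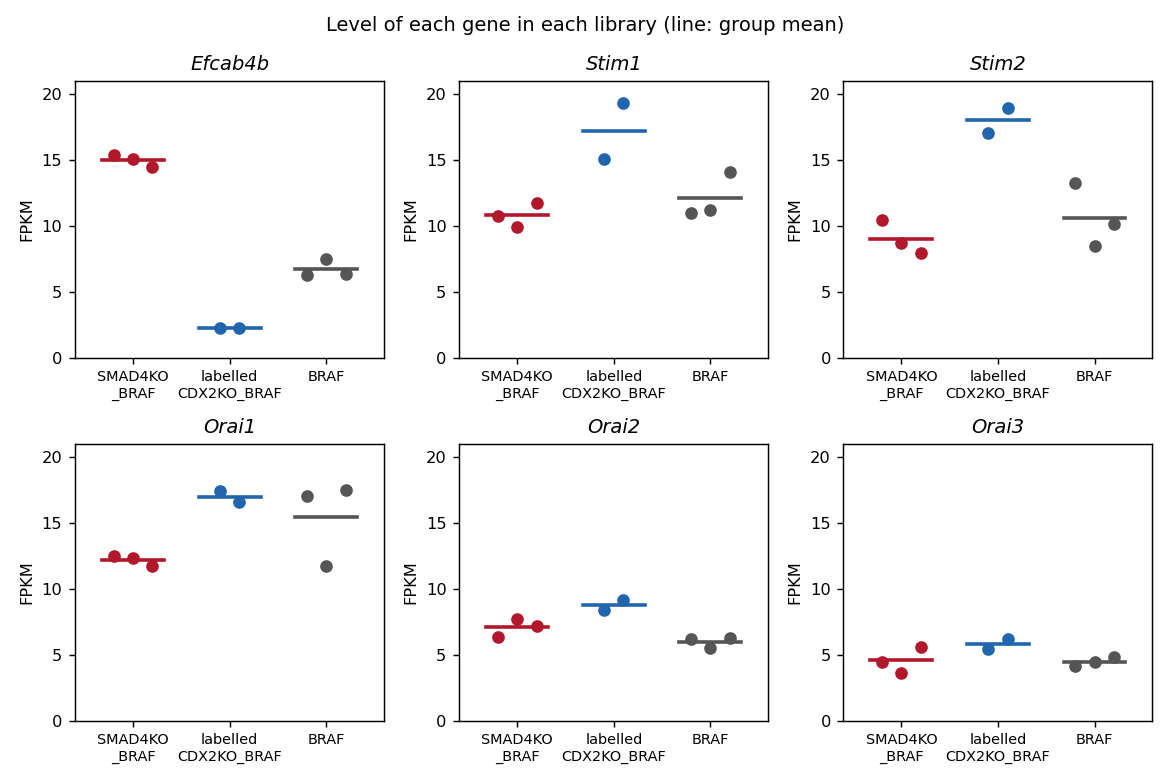
FPKM of Efcab4b, Stim1, Stim2, Orai1, Orai2 and Orai3, on 1 shared axis, where a point is a library and a line marks the mean of a group. Efcab4b lies at 14.5 to 15.4 in SMAD4KO_BRAF, 2.24 to 2.27 in the labelled libraries and 6.25 to 7.5 in BRAF. Stim1 and Stim2 are highest in the labelled libraries.

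The order of the members by FPKM, a scale that allows for transcript length, therefore differed between groups. In SMAD4KO_BRAF, Efcab4b was the highest of the 6, followed by Orai1, Stim1, Stim2, Orai2 and Orai3. The only neighbours in that order whose libraries overlapped were Stim1 and Stim2. In the libraries labelled CDX2KO_BRAF, Efcab4b was the lowest, below Orai3, and Stim2, Stim1 and Orai1 overlapped at the top. In BRAF it lay below Stim2 and overlapped Orai2, while Orai1, Stim1 and Stim2 overlapped above it. All 6 passed the filter, which asked for 2 or more libraries at an FPKM of 1 or above, and the lowest single value among them was 2.24, of Efcab4b in labelled library 0.

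The stretch before the Efcab4b start site is shown because Smad4 and its partner Smad3 bind DNA at the short Smad box. RefSeq places the gene, as Cracr2a, on the plus strand of chromosome 6 of GRCm38.p6, a later build than the mm9 of the deposited values. The 250 bases before the start, chr6:127561086-127561335, are printed 5′ to 3′ with each match to the Smad box CAGAC in capitals.
Efcab4b promoter: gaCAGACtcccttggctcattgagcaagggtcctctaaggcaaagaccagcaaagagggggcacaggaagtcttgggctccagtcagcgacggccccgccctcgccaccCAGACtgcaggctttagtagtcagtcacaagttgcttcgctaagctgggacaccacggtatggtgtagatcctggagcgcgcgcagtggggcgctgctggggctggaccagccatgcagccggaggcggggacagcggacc
The 2 matches start at positions -248 and -141, counted back from the gene start with -1 as the base before it. Both strands (CAGAC and GTCTG) were searched over the 300 bases that add 50 after the start, and 49.6% of 32851 mouse promoter windows of that length hold at least 1 match. The Smad palindrome GTCTAGAC, present in 0.213% of the windows, was not in this one, nor were the Cdx core TTTAT (40% of windows, with ATAAA on the other strand) or the AP-1 site TGACTCA (5.20%, with TGAGTCA). Among the other members the same search found 1 Smad box in the window of Stim2, 3 in that of Orai3 and 0 in those of Stim1, Orai1 and Orai2. A match is a string of letters and does not show binding.

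Part of the Efcab4b signal is uncertain by its sequence. Of the 7775 distinct stretches of 50 bases, the read length, in its GENCODE transcripts, 8.21% also occur in transcripts of other genes, none of them a member. An exon of Gm43634 overlaps it on the same strand. The share was at most 0.425% for each of the other members. Orai1 is overlapped by Gm2479 on the opposite strand, and whether counting used strand is not given in the sources used here. How the authors' counting divided such reads was not tested.

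Summed markers of Paneth and enteroendocrine cells were lowest in the labelled libraries, as Efcab4b was, while none of these markers passed between SMAD4KO_BRAF and BRAF. Paneth cells, which lie between the stem cells at the crypt base and secrete antimicrobial peptides, were followed by 5 markers, all above an FPKM of 1 in every library. Their summed FPKM was 23942, 23519 and 15382 in the SMAD4KO_BRAF libraries, 6747 and 5173 in the labelled libraries and 11304, 8764 and 17695 in the BRAF libraries. Like Efcab4b, the sum was lowest in both labelled libraries, and in this sum SMAD4KO_BRAF and BRAF overlapped. In limma, 0 of the 5 passed between SMAD4KO_BRAF and BRAF (0 with an unadjusted p under 0.05), 2 fell in the labelled libraries relative to BRAF, and 2 were higher in SMAD4KO_BRAF than in the labelled libraries. The 5 markers of enteroendocrine cells, the hormone-secreting cells of the epithelium, summed to 116, 40.1 and 92.3 in SMAD4KO_BRAF, 35.2 and 22.8 in the labelled libraries and 53.6, 59.8 and 66.2 in BRAF. In limma 0 of these 5 passed between SMAD4KO_BRAF and BRAF (1 with an unadjusted p under 0.05), 2 fell in the labelled libraries relative to BRAF, and 2 were higher in SMAD4KO_BRAF than in the labelled libraries. Over all tested genes 7.21% fell in the labelled libraries relative to BRAF, and 5.01% were higher in SMAD4KO_BRAF than in the labelled libraries. Between SMAD4KO_BRAF and BRAF 15.1% of all tested genes had an unadjusted p under 0.05. Of 5 crypt base stem cell markers 2 were also higher in SMAD4KO_BRAF than in the labelled libraries, and 0 passed against BRAF in either group. Their sums overlapped, at 274 to 530 in SMAD4KO_BRAF, 225 to 444 in the labelled libraries and 185 to 459 in BRAF. Of 5 goblet cell markers 0 passed in any comparison, with sums of 1918 to 4143, 4115 to 4811 and 2648 to 2934 in the same order. The part of these cell types in the Efcab4b values was not tested.

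T cells, in which the protein was described, were followed by 13 markers of T cells and intraepithelial lymphocytes, which summed to 57.0, 178 and 523 in the SMAD4KO_BRAF libraries, 17.0 and 75.9 in the labelled libraries and 38.3, 1086 and 192 in the BRAF libraries. SMAD4KO_BRAF library 0 had the lowest of these sums in its group and the highest Efcab4b level of all 8 libraries, at 15.4. BRAF library 1 had the highest sum of all and the highest Efcab4b level in BRAF, at 7.5. In limma 0 of the 12 tested markers passed in any of the 3 comparisons (0, 0 and 0 with an unadjusted p under 0.05 for SMAD4KO_BRAF minus BRAF, SMAD4KO_BRAF minus the labelled libraries and the labelled libraries minus BRAF). Their median difference was -0.016 in SMAD4KO_BRAF relative to BRAF and 1.78 in SMAD4KO_BRAF relative to the labelled libraries. It was -1.88 in the labelled libraries relative to BRAF, so this median was lowest in the group where Efcab4b was lowest. By library that order did not hold. Labelled library 1, with a sum of 75.9, lay above SMAD4KO_BRAF library 0 (57.0) and BRAF library 0 (38.3). In the labelled libraries relative to BRAF the median was also negative for markers of myeloid cells (-1.01), mesenchyme and smooth muscle (-1.54) and B cells (-0.87). The part of T cells in the Efcab4b values was not tested. Enterocyte markers, 6 in all, summed to 2809 to 7363 in SMAD4KO_BRAF, 2205 to 4692 in the labelled libraries and 7241 to 13731 in BRAF. For this list 0 of 6 passed between SMAD4KO_BRAF and BRAF in limma. An unadjusted p under 0.05 was reached by 4 of them, against 15.1% of all tested genes. In the labelled libraries relative to BRAF 3 of 6 fell, against 7.21% of all tested genes. The median differences were -1.35 and -2.14.

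**Figure D2:**
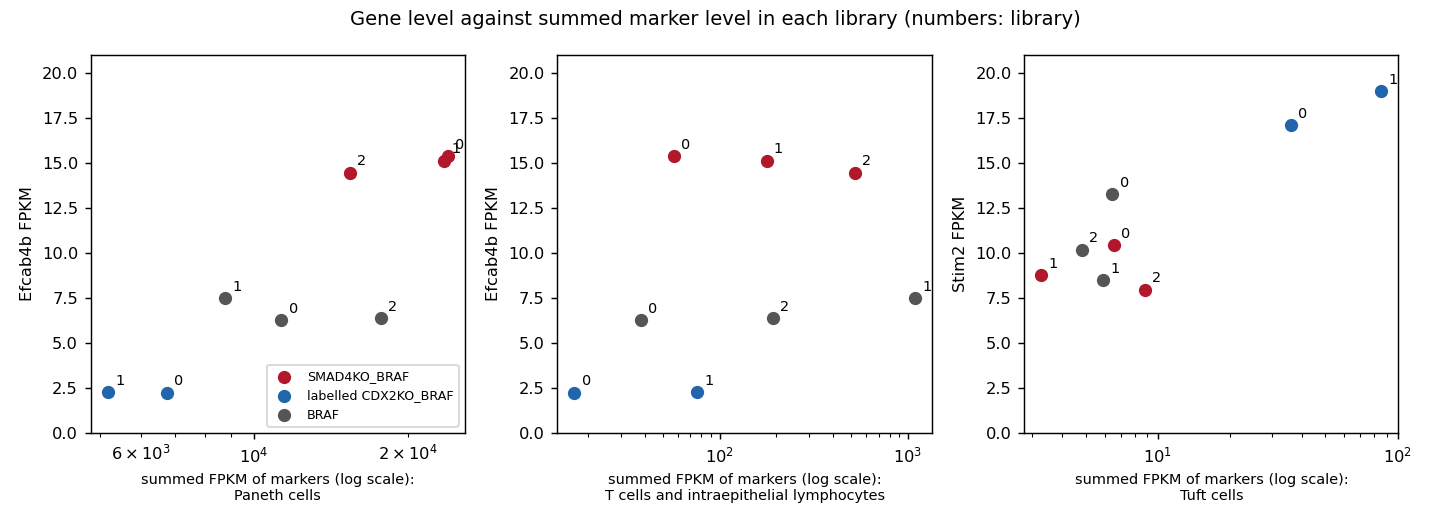
FPKM of Efcab4b (left and centre) and Stim2 (right) against the summed FPKM of cell type markers, on a log scale, where each point is a library with its number beside it. T cell sums run over 57.0 to 523 in SMAD4KO_BRAF, 17.0 to 75.9 in the labelled libraries and 38.3 to 1086 in BRAF, and the labelled libraries combine the lowest Paneth sums with the lowest Efcab4b and the highest tuft sums with the highest Stim2.

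Stim1 and Stim2, the sensors of the store, were highest in the libraries labelled CDX2KO_BRAF. Stim1, the sensor that responds to strong depletion, had an FPKM of 10.8, 9.96 and 11.7 in SMAD4KO_BRAF, 15.1 and 19.3 in the labelled libraries and 11, 11.2 and 14.1 in BRAF. Both labelled libraries lay above all the others, and SMAD4KO_BRAF and BRAF overlapped. Stim1 was lower in SMAD4KO_BRAF than in the labelled libraries by a difference of -0.61 ± 0.16 (limma, adjusted p = 0.0475). That call did not hold without SMAD4KO_BRAF library 0, 1 or 2 (0.0906, 0.103 and 0.0859), labelled library 0 or 1 (0.0834 and 0.239) or BRAF library 0, 1 or 2 (0.0605, 0.0596 and 0.0524), and over the 17 alternatives the adjusted p was 0.0425 to 0.239. The labelled libraries minus BRAF gave 0.47 ± 0.16, which did not pass (adjusted p = 0.0941).

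Stim2, the sensor tuned to small losses of stored calcium, had an FPKM of 10.4, 8.74 and 7.96 in SMAD4KO_BRAF, 17.1 and 19.0 in the labelled libraries and 13.3, 8.47 and 10.2 in BRAF. Again both labelled libraries lay above the other 6. Stim2 rose in the labelled libraries relative to BRAF by 0.73 ± 0.19 (limma, adjusted p = 0.0458), and its mean was 1.70 times as high. The call did not hold without SMAD4KO_BRAF library 1 or 2 (0.0686 and 0.0624), labelled library 0 or 1 (0.151 and 0.218) or BRAF library 1 or 2 (0.0919 and 0.115), in a range of 0.0125 to 0.218 over the alternatives. In SMAD4KO_BRAF it was lower than in the labelled libraries by a difference of -0.93 ± 0.19 (adjusted p = 0.0235 in limma). This call ended without SMAD4KO_BRAF library 1 or 2 (0.0572 and 0.0734) or labelled library 0 or 1 (0.105 and 0.144), in a range of 0.00609 to 0.144. Between SMAD4KO_BRAF and BRAF the differences were -0.14 ± 0.14 for Stim1 (95% interval -0.47 to 0.18) and -0.20 ± 0.17 for Stim2 (-0.60 to 0.20), with limma's adjusted p at 0.627 and 0.581.

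Tuft cell markers, like Stim1 and Stim2, were highest in both labelled libraries. Tuft cells are chemosensory cells of the epithelium that signal through calcium. Their 7 markers summed to 6.58, 3.26 and 8.84 in SMAD4KO_BRAF, 36 and 85.6 in the labelled libraries and 6.47, 5.90 and 4.84 in BRAF, and Il25, the cytokine gene that defines them, was listed at 0 in all 3 BRAF libraries. In limma, 4 of the 5 tested markers rose in the labelled libraries relative to BRAF, against 6.89% of all tested genes. The same number were lower in SMAD4KO_BRAF than in the labelled libraries, against 6.6% of all tested genes. Both counts include Pou2f3, which passed the filter through the labelled libraries alone. It had to differ there, so its calls are not read as a result. Inside the other groups the order of tuft sums and sensors was mixed. Stim1 followed the tuft sums in SMAD4KO_BRAF and ran against them in BRAF. Stim2 was lowest (7.96) at the highest tuft sum of SMAD4KO_BRAF (8.84) and highest (13.3) at that of BRAF (6.47). The part of tuft cells in the Stim1, Stim2 and Orai2 values was not tested.

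Among the channel genes, Orai2 rose in the libraries labelled CDX2KO_BRAF, and Orai1 and Orai3 passed in no comparison. Orai1, the main store-operated pore subunit in most cells, had an FPKM of 12.5, 12.3 and 11.7 in SMAD4KO_BRAF, 17.4 and 16.6 in the labelled libraries and 17.1, 11.7 and 17.5 in BRAF. BRAF library 1 lay with the SMAD4KO_BRAF libraries and the other BRAF libraries with the labelled ones. SMAD4KO_BRAF minus BRAF was -0.30 ± 0.15 (95% interval -0.66 to 0.06, adjusted p = 0.390 in limma) and SMAD4KO_BRAF minus the labelled libraries -0.45 ± 0.17 (0.134). The second of these passed without BRAF library 1 (0.0346, in a range of 0.0346 to 0.406 over the alternatives).

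Orai2, a subunit that tempers the current of Orai1 when both share a channel, had an FPKM of 6.36, 7.71 and 7.21 in SMAD4KO_BRAF, 8.41 and 9.13 in the labelled libraries and 6.18, 5.51 and 6.26 in BRAF. All 3 groups were apart from each other. The rise in the labelled libraries relative to BRAF was 0.49 ± 0.12 (limma, adjusted p = 0.0401), with a mean 1.47 times as high. It did not hold without SMAD4KO_BRAF library 2 (0.0702), labelled library 0 or 1 (0.135 and 0.208) or BRAF library 0, 1 or 2 (0.0816, 0.0958 and 0.0860), in a range of 0.0180 to 0.208. SMAD4KO_BRAF minus BRAF was 0.21 ± 0.11 (95% interval -0.04 to 0.47) and did not pass (adjusted p = 0.392 in limma). Orai3, a subunit found in mammals alone, was the lowest of the channel genes, at 4.47, 3.64 and 5.61 in SMAD4KO_BRAF, 5.40 and 6.21 in the labelled libraries and 4.16, 4.43 and 4.80 in BRAF. The BRAF libraries lay inside the range of SMAD4KO_BRAF, and no comparison of Orai3 passed (adjusted p 0.272 to 0.975 in limma).

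The makeup of the channel genes was compared as shares of their summed FPKM, which do not depend on the scale of a library. Orai1 made up 53.5, 52.1 and 47.8% of the sum in the SMAD4KO_BRAF libraries, 55.8 and 51.9% in the labelled libraries and 62.3, 54.1 and 61.3% in the BRAF libraries. Orai2 made up 27.3, 32.6 and 29.3% in SMAD4KO_BRAF, 26.9 and 28.6% in the labelled libraries and 22.5, 25.4 and 21.9% in BRAF. For both genes every SMAD4KO_BRAF library lay on the same side of every BRAF library. The mean share of Orai1 was 51.1 ± 2.94% in SMAD4KO_BRAF and 59.2 ± 4.47% in BRAF (SD, n = 3 each), a difference of -8.10 percentage points. That of Orai2 was 29.7 ± 2.65% in SMAD4KO_BRAF and 23.3 ± 1.89% in BRAF, a difference of 6.45 points. The two-sided exact permutation test gave p = 0.1 for each, which is the smallest p that 3 against 3 libraries allow, so these differences could not pass. Among Orai1 and Orai2 alone the share of Orai1 differed by -8.48 points (exact permutation p = 0.1). Orai3 took 19.1 ± 3.74% in SMAD4KO_BRAF and 17.5 ± 2.71% in BRAF, and Stim1 took 54.5 ± 4.51% of the summed Stim genes in SMAD4KO_BRAF and 53.5 ± 7.04% in BRAF. These groups overlapped (exact permutation p = 0.6 and 0.8). Adjusted over the 4 shares by the Benjamini-Hochberg method, the exact permutation p was 0.2 for Orai1 and Orai2 and 0.8 for Orai3 and Stim1.

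**Figure D3:**
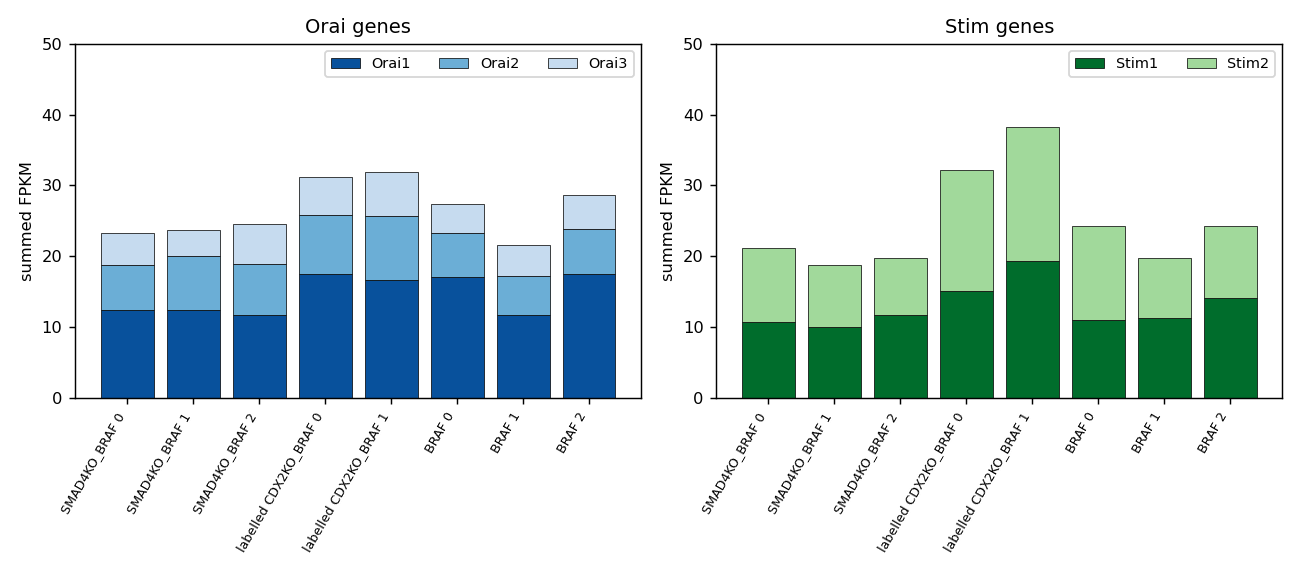
Summed FPKM of the Orai genes (left) and Stim genes (right) in each library, stacked by gene, from an axis at 0. Orai1 is the largest part of the Orai sum in all 8 libraries, at 47.8% to 62.3%, and the Stim sum is highest in both labelled libraries.

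Counted together, the members other than Efcab4b showed no called difference between SMAD4KO_BRAF and BRAF. In limma 0 of these 5 passed, none (0) came under an unadjusted p of 0.05, and only Orai2 had groups without overlap, 1 gene of 5. Over all 12084 tested genes, 0.0745% passed (0.0248% higher and 0.0497% lower), and 19.3% had groups without overlap. The widest of the 5 intervals, that of Stim2, reached from -0.60 to 0.20. Between the labelled libraries and BRAF, 3 of the 6 members passed, Stim2 and Orai2 higher and Efcab4b lower, against 14.1% of all tested genes (6.89% higher and 7.21% lower). Their groups did not overlap for 5 of 6, against 48.4% of all tested genes. Between SMAD4KO_BRAF and the labelled libraries, 2 of the 5 members other than Efcab4b passed, Stim1 and Stim2, both lower in SMAD4KO_BRAF, against 11.6% of all tested genes (5.01% higher and 6.6% lower). The groups did not overlap for 4 of these 5, against 47.3% of all tested genes. These comparisons share libraries with each other, and a share in 5 or 6 genes is coarse beside these backgrounds. Efcab4b is counted between the labelled libraries and BRAF although the BRAF libraries took part in its choice. Leaving out libraries moved the second count to between 1 and 3 and the last to between 0 and 2, and the members lost are named above.

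**Figure D4:**
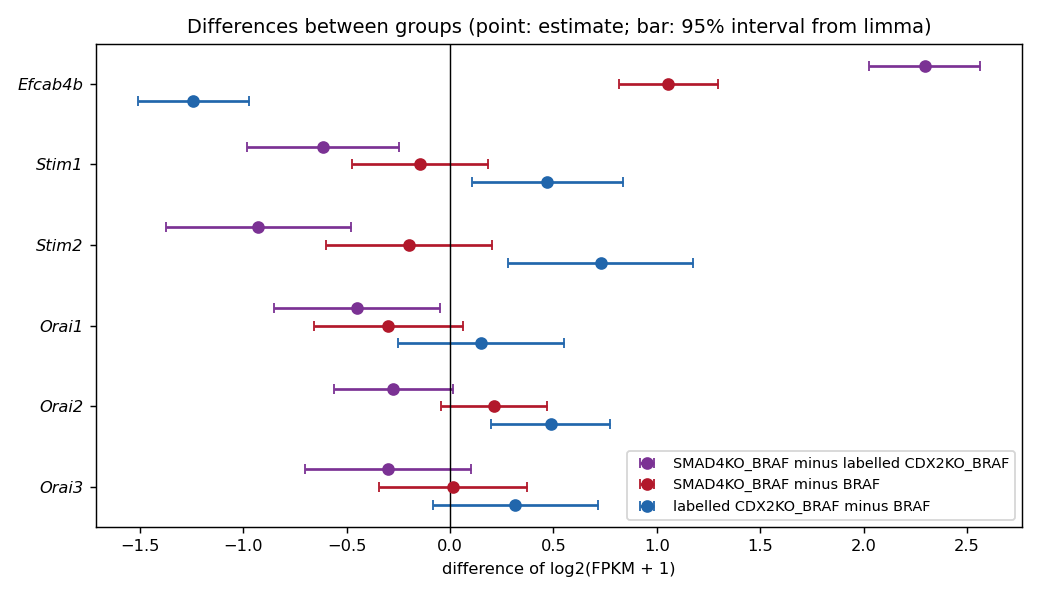
Differences of log2(FPKM + 1) between groups for each member, with the 95% interval of the limma fit. Of the 6 genes, Efcab4b has the largest differences in all 3 comparisons and a sign opposite to that of Stim1 and Stim2 in each, and its differences in the comparisons with SMAD4KO_BRAF are a description only.

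The wider calcium pathway was read from 7 lists with 88 tested genes. Between SMAD4KO_BRAF and BRAF 0 of the 88 passed in limma, 17 had an unadjusted p under 0.05 (19.3%, against 15.1% of all tested genes), and 10 passed in limma with library weights (11.4%, against 8.85% of all tested genes under the same weights). In the libraries labelled CDX2KO_BRAF relative to BRAF 9 rose and 5 fell (15.9%, against 14.1% of all tested genes). In SMAD4KO_BRAF relative to the labelled libraries 3 were higher and 11 lower (15.9%, against 11.6%). Both counts of the labelled libraries include Plcb2, which passed the filter through the labelled libraries alone. It had to differ there, so its calls are not read as a result. An unadjusted p under 0.05 in limma was reached by 31 genes in the labelled libraries relative to BRAF (35.2%, against 28.8% of all tested genes). In SMAD4KO_BRAF relative to the labelled libraries 40 reached it (45.5%, against 28.9%), with Plcb2 again in both counts. With library weights 26 (29.5%, against 21.5%) and 34 (38.6%, against 20.2%) passed in these 2 comparisons.

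The first list holds regulators of store-operated entry itself, of which 19 of the 26 in the table were tested. In SMAD4KO_BRAF relative to BRAF 0 of 19 passed in limma (2 with an unadjusted p under 0.05), with a median difference of -0.08 against -0.01 for all tested genes. The lowest unadjusted values were those of Tmem66, the gene of the inhibitor Saraf that slows store-operated entry (-0.49 ± 0.18, adjusted p = 0.301), and Selk, a selenoprotein of the endoplasmic reticulum (-0.37 ± 0.15, 0.312). In the labelled libraries relative to BRAF 2 rose and 1 fell, and the median was 0.20 against 0.02 for all tested genes.

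Efcab4a, the close relative of Efcab4b now named Cracr2b, did not follow it. Its FPKM was 18.3, 9.37 and 11.2 in SMAD4KO_BRAF, 18.1 and 23.7 in the labelled libraries and 10.5, 7.58 and 10.2 in BRAF, so that SMAD4KO_BRAF overlapped both other groups. It rose in the labelled libraries relative to BRAF by 1.07 ± 0.28 (limma, adjusted p = 0.0447), where Efcab4b fell. That call ended without SMAD4KO_BRAF library 2 (0.0652), labelled library 0 or 1 (0.116 and 0.231) or BRAF library 0, 1 or 2 (0.0749, 0.103 and 0.0909), in a range of 0.0133 to 0.231. Between SMAD4KO_BRAF and BRAF its difference was 0.38 ± 0.25 (95% interval -0.21 to 0.97, adjusted p = 0.478).

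Asph, whose products include junctate, a calcium-binding protein that tethers Stim to Orai, had an FPKM of 33.2, 25.8 and 24.6 in SMAD4KO_BRAF, 60 and 65.7 in the labelled libraries and 29.9, 23.4 and 26.5 in BRAF. Both labelled libraries lay far above the other 6, though FPKM of the gene does not separate junctate from the hydroxylase made from the same locus. Asph rose in the labelled libraries relative to BRAF by 1.21 ± 0.16 (limma, adjusted p = 0.00440, held in all 17 alternatives at up to 0.0499). Its level in SMAD4KO_BRAF differed from the labelled libraries by -1.16 ± 0.16 (adjusted p = 0.00669, 0.00158 to 0.0688 over the alternatives). The Asph call relative to the labelled libraries ended without labelled library 1 (0.0688). Slc35g1, a partner of Stim1, had an FPKM of 90.4, 76.7 and 81.5 in SMAD4KO_BRAF, 67.4 and 64.1 in the labelled libraries and 102, 90.6 and 93.5 in BRAF. It fell in the labelled libraries by 0.53 ± 0.12 on the log2(FPKM + 1) scale relative to BRAF (adjusted p = 0.0259, 0.00816 to 0.159 over the alternatives). The Slc35g1 call relative to BRAF ended without labelled library 0 or 1 (0.114 and 0.159) or BRAF library 0 or 2 (0.0687 and 0.0696). Homer2, a scaffold of calcium channels, was the one regulator called higher in SMAD4KO_BRAF than in the labelled libraries, at 3.87, 5.91 and 5.12 against 2.13 and 1.49 (1.08 ± 0.20, adjusted p = 0.0153, 0.00575 to 0.114 over the alternatives). The Homer2 call relative to the labelled libraries ended without SMAD4KO_BRAF library 2 (0.0504) or labelled library 0 or 1 (0.0553 and 0.114).

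The other 15 tested regulators passed in no comparison. Their differences between SMAD4KO_BRAF and BRAF ran from -0.49 (Tmem66) to 0.27 (Lrmp). In the labelled libraries relative to BRAF they ran from -0.97 (Cav1) to 1.83 (Lrmp). Lrmp, a gene also expressed by tuft cells, was at 3.19, 1.58 and 5.75 in SMAD4KO_BRAF, 7.52 and 16.6 in the labelled libraries and 1.13, 5.03 and 2.21 in BRAF and missed the threshold against BRAF (1.83 ± 0.56, adjusted p = 0.0764 in limma). The lipid tethers Esyt1 and Esyt2, Ubqln1, Adcy8, Homer1, Tmed10, Unc93b1, Stoml2, Tmem110 and the septins Sept2 and Sept7 complete the list.

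**Figure D5:**
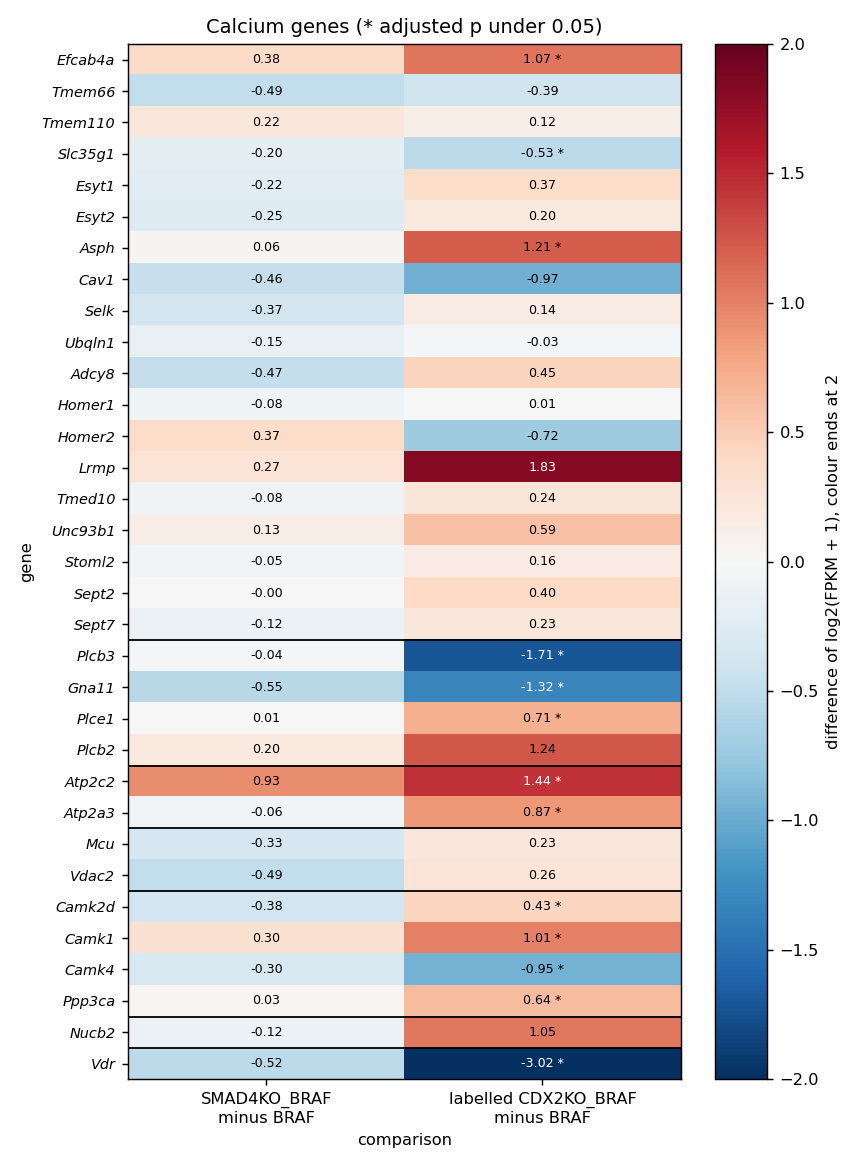
Differences of log2(FPKM + 1) from BRAF for the named calcium genes, as colour and as printed values, for SMAD4KO_BRAF (left) and the labelled libraries (right), with lines between the lists and a star at a limma adjusted p under 0.05 (none for Plcb2, which is given without a test). No star stands in the SMAD4KO_BRAF column, and in the labelled libraries Asph is at 1.21, Plcb3 at -1.71 and Vdr at -3.02.

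Upstream of the store, genes of calcium release (16 tested) had 0 calls between SMAD4KO_BRAF and BRAF (3 with an unadjusted p under 0.05 in limma), and 2 rose and 2 fell in the labelled libraries relative to BRAF. The median differences were -0.09 in both comparisons, against -0.01 and 0.02 for all tested genes, and in SMAD4KO_BRAF 1 was higher and 4 lower than in the labelled libraries. Plcb3, a phospholipase that makes the messenger that opens the store, had an FPKM of 194, 164 and 207 in SMAD4KO_BRAF, 60.2 and 56.7 in the labelled libraries and 182, 197 and 201 in BRAF. It was low in both labelled libraries, and the other groups overlapped, with -1.71 ± 0.14 in the labelled libraries relative to BRAF (limma, adjusted p = 0.000740) and 1.66 ± 0.14 in SMAD4KO_BRAF relative to them (0.00103), and both calls held in all 17 alternatives. Gna11, a G protein subunit that activates such phospholipases, was at 108 and 104 in the labelled libraries and 277, 222 and 304 in BRAF (-1.32 ± 0.24, adjusted p = 0.0137, 0.00358 to 0.0993 over the alternatives). The Gna11 call relative to BRAF ended without labelled library 0 or 1 (0.0800 and 0.0993). Plce1, another phospholipase gene, rose and was at 11.6 and 14.0 in the labelled libraries and 6.64, 8.12 and 7.56 in BRAF (0.71 ± 0.15, adjusted p = 0.0224, 0.00685 to 0.155 over the alternatives). The Plce1 call relative to BRAF ended without labelled library 0 or 1 (0.0615 and 0.155) or BRAF library 0 or 2 (0.0608 and 0.0621). In SMAD4KO_BRAF it was lower than in the labelled libraries, by -0.70 ± 0.15 (adjusted p = 0.0259, 0.0129 to 0.164 over the alternatives). The Plce1 call relative to the labelled libraries ended without SMAD4KO_BRAF library 0 or 2 (0.0551 and 0.0688), labelled library 0 or 1 (0.0766 and 0.164) or BRAF library 2 (0.0517). Plcb2, the enzyme of taste and tuft cells, had an FPKM of 0.765, 0.389 and 0.926 in SMAD4KO_BRAF, 1.90 and 3.10 in the labelled libraries and 0.151, 0.740 and 0.563 in BRAF, beside the tuft marker sums given above. It passed the filter through the labelled libraries alone and had to differ there, so its differences, -1.04 ± 0.27 in SMAD4KO_BRAF relative to the labelled libraries and 1.24 ± 0.27 in the labelled libraries relative to BRAF, are a description without a test, although the counts of this list include it.

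Of the pumps and exchangers that clear calcium (6 tested), 0 passed between SMAD4KO_BRAF and BRAF (1 with an unadjusted p under 0.05 in limma), and 2 rose in the labelled libraries relative to BRAF. Atp2c2, a pump of the secretory pathway known from human cells to bind Orai1, had an FPKM of 16.3, 10.1 and 10.1 in SMAD4KO_BRAF, 19.9 and 15.0 in the labelled libraries and 6.33, 5.78 and 5.17 in BRAF. It was lowest in all 3 BRAF libraries, with 1.44 ± 0.23 in the labelled libraries (adjusted p = 0.00774 in limma, 0.00157 to 0.0640 over the alternatives) and 0.93 ± 0.20 in SMAD4KO_BRAF, which did not pass (0.179, range 0.0373 to 0.456). The Atp2c2 call relative to BRAF ended without labelled library 0 (0.0640). Atp2a3, which pumps calcium back into the store, was at 92.1, 56.3 and 61.9 in SMAD4KO_BRAF, 121 and 142 in the labelled libraries and 82.6, 72.2 and 61.3 in BRAF. It rose in the labelled libraries relative to BRAF (0.87 ± 0.23, adjusted p = 0.0484, 0.00915 to 0.232 over the alternatives). The Atp2a3 call relative to BRAF ended without SMAD4KO_BRAF library 2 (0.0695), labelled library 0 or 1 (0.144 and 0.232) or BRAF library 0, 1 or 2 (0.0636, 0.0965 and 0.128). Atp2a3 was lower in SMAD4KO_BRAF than in the labelled libraries (-0.93 ± 0.23, adjusted p = 0.0444, 0.0121 to 0.214 over the alternatives). The Atp2a3 call relative to the labelled libraries ended without SMAD4KO_BRAF library 1 or 2 (0.0935 and 0.121), labelled library 0 or 1 (0.142 and 0.214) or BRAF library 0, 1 or 2 (0.0529, 0.0603 and 0.0624).

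Mitochondria take up calcium beside open channels, and of their uptake genes (10 tested) 0 passed between SMAD4KO_BRAF and BRAF in limma. The median difference was -0.32 against -0.01 for all tested genes, and 7 of 10 had an unadjusted p under 0.05, against 15.1% of all tested genes. Mcu, the pore of the uniporter, was at 71.0, 76.8 and 74.4 in SMAD4KO_BRAF, 99.4 and 121 in the labelled libraries and 101, 94.3 and 84.9 in BRAF. It did not pass against BRAF (-0.33 ± 0.12, adjusted p = 0.287) but was lower in SMAD4KO_BRAF than in the labelled libraries (-0.56 ± 0.13, adjusted p = 0.0366, 0.0242 to 0.211 over the alternatives). The Mcu call relative to the labelled libraries ended without SMAD4KO_BRAF library 0, 1 or 2 (0.0784, 0.0668 and 0.0992), labelled library 0 or 1 (0.0757 and 0.211) or BRAF library 1 or 2 (0.0521 and 0.0545). Vdac2, a channel of the outer membrane, gave -0.49 ± 0.17 against BRAF (0.279) and -0.75 ± 0.19 against the labelled libraries (adjusted p = 0.0467, 0.0126 to 0.214 over the alternatives). The Vdac2 call relative to the labelled libraries ended without SMAD4KO_BRAF library 0, 1 or 2 (0.0615, 0.0932 and 0.132), labelled library 0 or 1 (0.214 and 0.182) or BRAF library 2 (0.0767).

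Downstream of entry, genes of calmodulin, calcineurin and NFAT (19 tested) had 0 calls between SMAD4KO_BRAF and BRAF (4 with an unadjusted p under 0.05 in limma), and 3 rose and 1 fell in the labelled libraries relative to BRAF. Camk2d, a calmodulin-dependent kinase, had an FPKM of 43.6, 45.8 and 43.1 in SMAD4KO_BRAF, 73.2 and 83.8 in the labelled libraries and 62.2, 55.7 and 56.3 in BRAF. The 3 groups stood apart in the reverse of the Efcab4b order, with -0.81 ± 0.11 in SMAD4KO_BRAF relative to the labelled libraries (adjusted p = 0.00537 in limma, 0.00259 to 0.0625 over the alternatives), -0.38 ± 0.10 relative to BRAF (0.203, range 0.0429 to 0.544) and 0.43 ± 0.11 in the labelled libraries relative to BRAF (adjusted p = 0.0413, 0.0143 to 0.234 over the alternatives). The Camk2d call relative to the labelled libraries ended without labelled library 1 (0.0625). The Camk2d call relative to BRAF ended without SMAD4KO_BRAF library 0, 1 or 2 (0.0503, 0.0602 and 0.0739), labelled library 0 or 1 (0.0906 and 0.234) or BRAF library 0, 1 or 2 (0.0576, 0.0983 and 0.118). The kinase gene Camk1 rose in the labelled libraries, at 5.03 and 7.53 against 2.71, 2.53 and 2.42 in BRAF (1.01 ± 0.17, adjusted p = 0.00900, 0.00335 to 0.0655 over the alternatives), and was lower in SMAD4KO_BRAF than in them (-0.71 ± 0.17, adjusted p = 0.0354, 0.0216 to 0.190 over the alternatives). The Camk1 call relative to BRAF ended without labelled library 1 (0.0655). The Camk1 call relative to the labelled libraries ended without SMAD4KO_BRAF library 0, 1 or 2 (0.0771, 0.0721 and 0.0904), labelled library 1 (0.190) or BRAF library 0 or 2 (0.0531 and 0.0630). Camk4, a kinase of T cells and neurons, fell in the labelled libraries, at 0.247 and 0.299 against 1.29, 1.78 and 1.35 in BRAF. That difference was -0.95 ± 0.17 (limma, adjusted p = 0.0128, 0.00476 to 0.0884 over the alternatives). In SMAD4KO_BRAF its FPKM was 1.13, 0.855 and 1.04. The T cell marker sums of the labelled libraries (17.0 to 75.9) and BRAF (38.3 to 1086) overlapped, and the part of T cells in the Camk4 values was not tested. The Camk4 call relative to BRAF ended without labelled library 0 or 1 (0.0872 and 0.0884). Ppp3ca, the catalytic subunit of calcineurin, rose to 29.8 and 35.6 in the labelled libraries, against 19.2, 22.1 and 20.6 in BRAF (0.64 ± 0.17, adjusted p = 0.0446, 0.0113 to 0.234 over the alternatives). The Ppp3ca call relative to BRAF ended without SMAD4KO_BRAF library 2 (0.0699), labelled library 0 or 1 (0.108 and 0.234) or BRAF library 0, 1 or 2 (0.109, 0.0702 and 0.108).

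Of the calcium-binding and folding proteins of the store (13 tested), 0 passed against BRAF in SMAD4KO_BRAF or in the labelled libraries in limma (0 and 1 with an unadjusted p under 0.05). Nucb2, a calcium-binding nucleobindin, was lower in SMAD4KO_BRAF than in the labelled libraries, at 13.0, 9.30 and 6 against 26.2 and 17.8 (-1.17 ± 0.29, adjusted p = 0.0446, 0.0124 to 0.252 over the alternatives). The Nucb2 call relative to the labelled libraries ended without SMAD4KO_BRAF library 1 or 2 (0.0856 and 0.0770), labelled library 0 or 1 (0.252 and 0.105) or BRAF library 0, 1 or 2 (0.0606, 0.0588 and 0.0763). Of the genes of calcium absorption (5 tested), 0 passed between SMAD4KO_BRAF and BRAF in limma (0 with an unadjusted p under 0.05). Vdr, the vitamin D receptor that drives absorption, had an FPKM of 47.3, 30.4 and 77.0 in SMAD4KO_BRAF, 8.93 and 6.63 in the labelled libraries and 54.1, 97.8 and 63.3 in BRAF. It was lowest in both labelled libraries, with -3.02 ± 0.40 relative to BRAF (0.00421, held in all 17 alternatives at up to 0.0480). In SMAD4KO_BRAF it was higher than in the labelled libraries, with 2.50 ± 0.40 (adjusted p = 0.0103, 0.00500 to 0.0906 over the alternatives). The Vdr call relative to the labelled libraries ended without labelled library 0 or 1 (0.0554 and 0.0906).

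The genes with the pattern most like that of Efcab4b were ranked by Pearson's r of log2(FPKM + 1) over the 8 libraries, among 8379 tested genes with a mean FPKM of at least 5. Efcab4b falls into 3 separate levels, 1 per group, so r here mainly ranks genes by the order and spacing of their group means, and it carries no p. The highest were Lbh (r = 0.981, Spearman's rho = 0.905), Ankrd10 (0.980 and 0.905), Ppox (0.976 and 0.976), Pla2g5 (0.975 and 0.857) and Amica1 (0.970 and 0.929). Lbh, a transcriptional regulator gene known as a Wnt target, had an FPKM of 19.5, 18.8 and 16.7 in SMAD4KO_BRAF, 3.95 and 5.52 in the labelled libraries and 10.5, 9.25 and 9.88 in BRAF. Its mean was 18.3 ± 1.48 in SMAD4KO_BRAF and 9.87 ± 0.615 in BRAF (SD, n = 3 each), so that its levels kept the order of Efcab4b. Ppox, the protoporphyrinogen oxidase gene of heme synthesis, had the same order over a narrower span, with means of 13.3 ± 0.485, 9.61 ± 0.406 and 11.6 ± 0.618 in SMAD4KO_BRAF, the labelled libraries and BRAF.

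The most opposite were Stx7 (r = -0.987, rho = -0.929), Rala (-0.982 and -0.952), Ddx58 (-0.980 and -0.929), Sertad1 (-0.980 and -0.881) and Camk2d (-0.979 and -0.905), the last also a member of the calmodulin list. Stx7, an endosomal fusion protein gene, had an FPKM of 39.3, 39.0 and 39.0 in SMAD4KO_BRAF, 64.4 and 62.1 in the labelled libraries and 51.6, 46.0 and 46.2 in BRAF. Ddx58, which encodes the RNA sensor RIG-I, had 10.4, 9.26 and 9.67 in SMAD4KO_BRAF, 29.6 and 28.0 in the labelled libraries and 15.7, 12.3 and 14.3 in BRAF. No group overlapped another in either gene. Of the other members, Stim2 (r = -0.876, rho = -0.667), Stim1 (-0.848 and -0.786) and Orai1 (-0.782 and -0.595) ran most against Efcab4b over the 8 libraries, with Orai3 at -0.580 and -0.429 and Orai2 at -0.477 and -0.286. Its relative Efcab4a was at -0.497 and -0.262. All these values share the same libraries and group means.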

How the data were processed

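Messenger RNA of mouse jejunal crypts was given as FPKM in 1 table of gene symbols deposited by the authors. TruSeq libraries had been read in 50 bp from 1 end, and TopHat2 2.1.0, Cuffnorm 2.2.1, Cuffdiff 2.2.1 and mm9 are named, per the submitters' processing notes, without a link between a program and the table. Since the table has no counts, depth is unknown and precision rests on the scatter of the libraries, whose FPKM sums ran from 431269 to 595547. Column numbers start at 0 but titles at 1, which ties a column to its group and not to a single sample, and 3 columns that match no sample were not used.

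The FPKM were taken as log2(FPKM + 1), a scale that understates changes of low genes. Genes reaching an FPKM of 1 in 2 or more libraries, 12084 in number, entered a limma 3.58.1 fit (R 4.3.3) of all 3 groups with a trend of variance on mean level. Two-sided p-values were adjusted over these genes within each of 3 comparisons (Benjamini-Hochberg, threshold 0.05), and the fit was tested on simulated data. The simulated data changed 200 genes per comparison by a log2 difference of 1 or 2 and gave all libraries the same normal scatter for a gene. There the fit recovered 58.6% of log2 differences of 1 between SMAD4KO_BRAF and BRAF. It recovered 50.2% between the labelled libraries and BRAF and 49.2% between SMAD4KO_BRAF and the labelled libraries. A missing call therefore does not show that a gene is unchanged. Recovery in the real libraries, where the number of changed genes and the scatter of each library may differ, was not measured. Shares among the Orai and Stim genes were compared by exact permutation (SciPy 1.17.1). The 17 alternatives left out each of the 8 libraries in turn, or changed the pseudocount (0.1), the filter (none, or an FPKM of 5), the scaling (median ratio, quantile), the groups fitted (only the 2 compared), the trend (none), the weights (arrayWeights) or the column number (as a block). The median of all genes moved from 0 by at most 0.0694 under them.

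The members, lists and cell type markers were chosen with earlier results of these data known. A gene of the list of regulators is not reported here and was left out of its counts. Named are the members, the targeted genes, the tested regulators of store-operated entry, up to 4 called genes of each other list with the smallest adjusted p, and the 5 genes most like and most unlike Efcab4b, leaving out short RNAs and predicted or clone symbols. Promoters come from RefSeq (GRCm38.p6, 6 of 6 members matched by symbol or synonym) and transcripts from GENCODE. Python 3.11.15, numpy 2.4.6, pandas 2.3.3 and matplotlib 3.10.9 made tables and figures.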

Additional observations from a re-analysis of the deposited data

How the results depend on the processing

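In SMAD4KO_BRAF relative to BRAF, 0 of the 5 members other than Efcab4b passed under any of the 17 alternatives. In the libraries labelled CDX2KO_BRAF relative to BRAF the count of called members, 3 as reported, was 1 (Efcab4b) with no filter, with only the 2 groups compared and with the block, and 1 to 3 when each library was left out in turn. In SMAD4KO_BRAF relative to the labelled libraries it was, without Efcab4b, 2 as reported, 1 with no filter, quantile normalization, only the 2 groups compared or no trend, 0 with the block, and 0 to 2 when each library was left out. The column numbers are not shown to pair the samples. Deviations of same-numbered SMAD4KO_BRAF and BRAF libraries from their group means correlated at 0.241, -0.0474 and 0.00346, so a call lost with the block on the replicate number is not read as a weaker effect.

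Values near 0 changed sign. Orai3 in SMAD4KO_BRAF minus BRAF was at -0.034 after quantile normalization and between -0.12 (without SMAD4KO_BRAF library 2, and below 0 also without BRAF library 0) and 0.14 with a library left out. Orai1 in the labelled libraries minus BRAF ran from -0.024 (without BRAF library 1) to 0.25. The share of Orai3 ran from -0.20 (without SMAD4KO_BRAF library 2) to 3.54 points, and that of Stim1 from -2.98 (without BRAF library 0, and -1.43 without SMAD4KO_BRAF library 2) to 3.36, when each library was left out. Efcab4b in SMAD4KO_BRAF minus BRAF lay between 1.01 and 1.15, its highest value with a pseudocount of 0.1. The cause of these shifts was not tested.

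Over all tested genes, the 9 calls between SMAD4KO_BRAF and BRAF became 1069 with library weights, 5 with no filter and 5 to 25 with a library left out. The 1704 calls between the labelled libraries and BRAF became 2602 with library weights and 409 to 1833, and the 1402 between SMAD4KO_BRAF and the labelled libraries 2447 with library weights, 805 with the block and 234 to 1423. Of the named calcium genes, 3 of 14 calls in the labelled libraries relative to BRAF held in every alternative, and 1 of 12 in SMAD4KO_BRAF relative to them. These calls include Plcb2, which had 14 alternatives, since without a labelled library or with a minimum FPKM of 5 it was not tested. Without read counts, no counting error can be given for genes of low FPKM such as Plcb2 and Camk4.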
